A study of Mus musculus with 8 samples.

Results

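The cytosolic ribosomal protein genes were examined in sorted mouse beta cells that had lost Adar or kept 1 allele of it; Adar encodes an enzyme that turns adenosine into inosine in paired stretches of RNA. Members were the genes named Rps or Rpl with a number and at most 1 closing letter a, x or l, together with Rplp0, Rplp1, Rplp2 and Rpsa. A mean of at least 10 normalized counts over the 8 libraries was also required. Of 44343 genes in the table, 83 had such a name and 80 passed the limit, 32 of the small and 48 of the large ribosomal subunit, among 21498 genes that passed it in all. The members were thus chosen by name and by their mean level over all 8 libraries, and levels are given as a description. The lowest members were Rpl32l at 11.8, Rps10 at 13.1, Rpl6l at 14.3 and Rpl3l at 14.5, and the 3 names left out were Rpl10l at 7.87, Rpl24 at 4.16 and Rpl39l at 3.52.

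All mice carried MipCreER, a tamoxifen-inducible Cre recombinase under an insulin promoter, and the R26R-EYFP reporter. Adar was floxed/floxed in the 4 KO libraries and floxed/+ in the 4 Het libraries, so the controls had a floxed allele and the same Cre and reporter. At an age of 1 month the animals received 2 doses of 8 mg tamoxifen, and after 7 days the cells with YFP were sorted out of dispersed islets. The labels give no strain and do not say how many mice a library came from, so p-values rest on the spread of these libraries, which may be technical in part. The study was made to find the molecular basis of islet inflammation after the loss of Adar. The comparison asked here is whether the mRNAs of the ribosome's own proteins differ between the 2 genotypes.

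Each ribosome holds a small subunit, which reads the mRNA, and a large subunit, which joins the amino acids, and nearly every one of its proteins is built in as a single copy. The mRNAs of these proteins are among the most abundant of most cells and share a start of C and T letters, the terminal oligopyrimidine (TOP) motif, through which mTOR and Larp1 control their translation. Beta cells make proinsulin in large amounts and rely on a high capacity for protein synthesis.

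Promoter sequences are shown for the members with large and with small differences between the genotypes, because the start of these genes is the feature they are best known to share. RefSeq's promoter table (build GRCm38.p6) held 58 of the 80 members. Each line spans 40 bases before to 30 bases from a RefSeq transcription start, and capitals mark the longest run of C and T letters from 30 bases before the start onward. Where a gene had several starts, 1 is shown.
Rps24, chr14:24490638-24490707, plus strand: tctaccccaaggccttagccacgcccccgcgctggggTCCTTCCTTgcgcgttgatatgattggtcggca
Rps27l, chr9:66946046-66946115, plus strand: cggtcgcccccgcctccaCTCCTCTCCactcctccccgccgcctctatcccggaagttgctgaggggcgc
Rpl34, chr3:130730308-130730377, minus strand: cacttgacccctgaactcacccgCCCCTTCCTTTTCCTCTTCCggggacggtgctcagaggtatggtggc
Rpl14, chr9:120571477-120571546, plus strand: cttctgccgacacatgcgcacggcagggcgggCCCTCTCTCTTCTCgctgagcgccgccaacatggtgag
Rpsa, chr9:120127726-120127795, plus strand: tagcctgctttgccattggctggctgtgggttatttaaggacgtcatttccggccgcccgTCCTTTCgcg
Rplp0, chr5:115559427-115559496, plus strand: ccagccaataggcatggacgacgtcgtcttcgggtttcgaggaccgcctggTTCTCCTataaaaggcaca
Rpl10, chrX:74270776-74270845, plus strand: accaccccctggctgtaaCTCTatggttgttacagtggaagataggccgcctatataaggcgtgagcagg
The runs in these lines are 9, 9, 20, 14, 7, 7 and 4 letters long. The 7 genes were chosen with their values known, and nothing on the differences is read from the lengths. Rpl7a holds the longest run of the matched members, 21 letters, at a log2 fold change of 0.39, and Rpl23 has a run of 6 letters at 0.89. Other starts of the same gene also differ, with runs of 12 letters in Rps24, 8 in Rpl34 and 5 in Rps27l. The run of 12 in Rps24 is cut where the search begins, 30 bases before the start, and its C and T letters go on upstream.

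The letters CTTTC stood within 50 bases of a start, on the strand that reads like the RNA, in 53.4% of the 58 members with a promoter. The share was 14.6% of 27025 genes. On either strand the shares were 62.1% and 26.2%. CCGGAAG, the core of sites for ETS factors such as Gabpa, stood on either strand of the window from 250 bases before to 50 after a start in 41.4% of members and 9.93% of all genes. In the same window AAGATGGC, known from YY1, stood in 8.62% of members and 3.19% of all genes, and the E-box CACGTG of Myc, which reads the same on both strands, in 10.3% and 8.09%. The core of the interferon-stimulated response element, GAAA and GAAA with any 2 letters between them, stood on either strand in 12.1% of members and 3.99% of all genes. Its 7 holders were Rpl27a, Rpl38, Rpl4, Rpl5, Rps19, Rps23 and Rps7. Matches of CCGGAAG and AAGATGGC can share the letters AAG, and the interferon element can hold GAAAG, which reads CTTTC on the other strand. A match of letters is a description and not a bound site.

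The libraries differed in ways that bear on the values of the members. The Het libraries held 5925893 to 12819040 reads and the KO libraries 5370765 to 15883473. Under the deposited scaling, well-measured genes (a mean of at least 200) had a median of 0.88 in KO 1 and 0.96 in KO 2, in log2 units from the mean of the libraries, and of −0.77 to 0.22 in the other 6. The share of mitochondrially encoded genes was 17.4% in KO 3 and 6.90% to 10.4% elsewhere, and that of the insulin genes was 2.69% in KO 1, 3.20% in KO 4 and 6.95% to 10.4% elsewhere. All 10 beta cell markers, insulin included, had reads in every library and made up 3.68% to 11.8% of them. Marker lists of alpha, delta, PP, acinar, duct, endothelial, stellate, macrophage, T and B cells each took at most 0.0290% of reads in any library. The macrophage marker C1qa was lower in KO (log2 fold change −1.79, adjusted p = 0.00513), and the 5 macrophage markers took 0.00359% to 0.00570% of reads in Het and 0.00125% to 0.00292% in KO. Of the same list, Adgre1 and Lyz2 were highest in KO 3, at 35.3 and 14.3 normalized counts, and Csf1r and Cd68 overlapped between the genotypes. The duct marker Krt19 was lower as well (−1.69, adjusted p = 0.00488), and the 3 duct markers took 0.00208% to 0.00320% in Het and 0.000872% to 0.00188% in KO. Krt19 was at 201 normalized counts in Het 3, 27.5 to 52.5 in the other Het libraries and 9.86 to 28.5 in KO. The duct markers Sox9 (3.75 to 10.5 in Het, 2.21 to 16.1 in KO) and Cftr overlapped between the genotypes. Among all markers, Amy2a5 had no read in KO 2, Trac had none in Het 2, and the others had reads in all 8 libraries. The part of these differences in the results on ribosomal protein genes was not tested, and in such bulk samples fewer cells of a type and less RNA per cell cannot be told apart.

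As a share of the library's reads, the ribosomal protein genes were higher in all KO libraries than in all Het libraries. Such a share divides by the library's total and does not use the deposited scaling factors. Under the deposited scaling no single member separated the genotypes in this way, as given below. The 80 members took 0.754%, 0.753%, 0.733% and 0.725% of reads in Het 1 to Het 4 and 1.12%, 0.824%, 1.36% and 0.847% in KO 1 to KO 4. The Het libraries lay close together, while the KO libraries ranged widely, with KO 3 the highest and KO 2 the nearest to Het. The mean was 0.741% ± 0.0146 in Het and 1.04% ± 0.253 in KO (SD, n = 4 each), a ratio of 1.40, which was 1.25 without KO 3. The 95% exact binomial (Clopper-Pearson) interval ended at 0.761% in Het 1, the highest Het library, and began at 0.819% in KO 2, the lowest KO library, and such intervals cover counting error only. No p-value is given for this sum, since the members were chosen with results of these data known.

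The 2 subunits gave the same picture. The 32 small subunit genes took 0.278%, 0.278%, 0.264% and 0.268% of reads across Het 1 to Het 4 and 0.415%, 0.288%, 0.510% and 0.316% across KO 1 to KO 4. The 48 large subunit genes took 0.476%, 0.476%, 0.469% and 0.457% in Het and 0.703%, 0.536%, 0.849% and 0.531% in KO. In both subunits the 2 genotypes did not overlap, and the ratio of the means was 1.41 for the small and 1.39 for the large subunit. Reads of the large over reads of the small subunit stood at 1.70 to 1.78 in Het and 1.66 to 1.86 in KO, with means of 1.73 and 1.72, so the genotypes overlapped in this ratio.

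**Figure D1:**
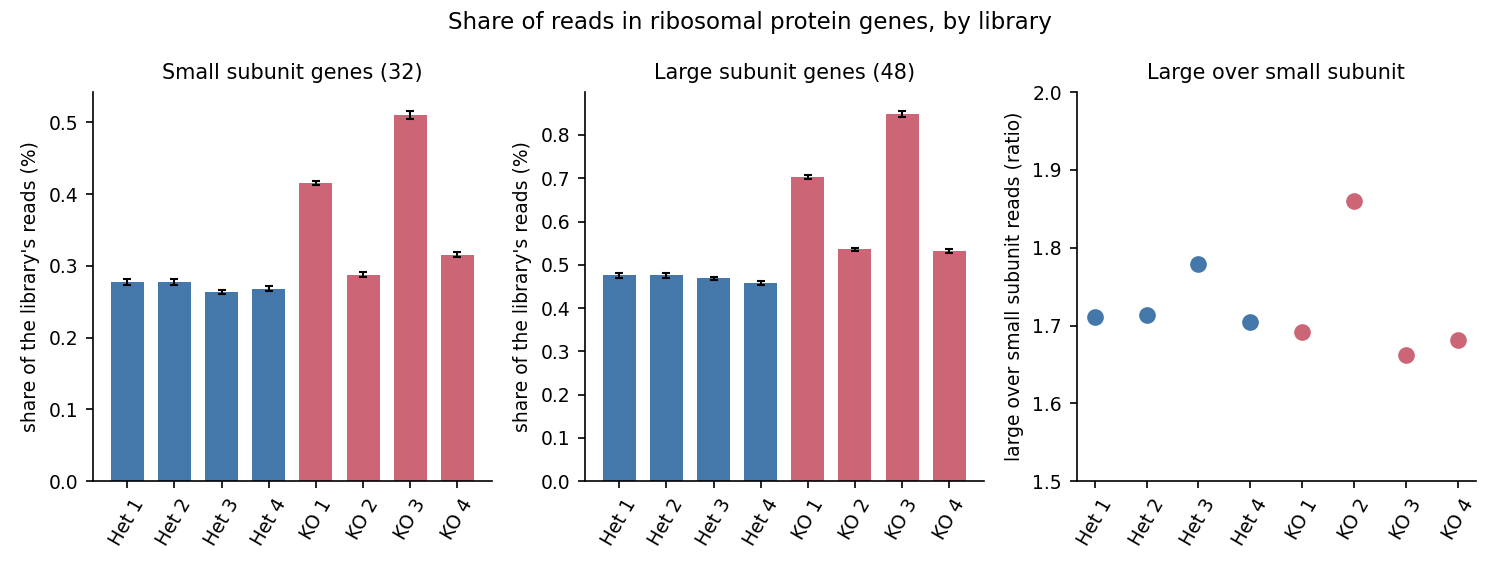
Share of each library's reads (percent, vertical axis) in small subunit genes (left) and large subunit genes (middle), with 95% exact binomial intervals, and the ratio of large to small subunit reads (right, axis from 1.5 to 2.0). Het libraries are blue and KO libraries red; all 4 KO bars stand above the Het bars, from 0.288% for KO 2 to 0.510% for KO 3 in the small subunit, while the ratios of the genotypes overlap.

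Other denominators kept the genotypes apart. Over reads of genes that are not mitochondrially encoded, the members took 0.791% to 0.818% in Het and 0.913% to 1.65% in KO. Over reads of nuclear protein-coding genes the ranges were 0.918% to 0.947% and 1.06% to 1.96%. With insulin also removed they were 1.03% to 1.08% and 1.11% to 2.26%. The gap was narrowest in the last, where for the large subunit alone the highest Het and the lowest KO library both came to 0.694%.

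Gene by gene, the deposited scaling gave a higher mean log2 level in KO for all 32 small subunit genes and for 47 of the 48 large subunit genes, but none passed the test across all genes. The median log2 fold change was 0.68 in the small subunit and 0.69 in the large subunit, beside 0.052 over the 21498 genes tested, of which 54.3% were positive. With TMM scaling or scaling to total reads, 31 and 46 members were positive, since Rpsa, Rplp0 and Rpl3l then stood at or below 0, and under TMM the medians were 0.50 and 0.51, beside −0.12 over all genes. With limma on log2(value + 1) and an adjusted p under 0.05, 0 of 32 and 0 of 48 members were called, where 0.921% of all genes were called higher and 0.0233% lower. Before adjustment, p was under 0.05 for 4 members, all higher: Rps27l and 3 large subunit members (Rpl34, Rpl6l and Rpl13a), against 4.05% of all genes higher. The adjusted p ran from 0.546 to 0.986 in the small and from 0.657 to 0.991 in the large subunit, and the median standard error was 0.55 in both. On the recovered reads edgeR called 0 members (0.673% of all genes higher and 0.0343% lower). Its unadjusted p was under 0.05 for 7 small and 10 large subunit members, all higher, against 4.75% of all genes. DESeq2 called 0 members (1.25% of all genes higher and 0.0178% lower), and the unadjusted counts were 14 and 21, against 3.65%.

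Under this scaling the KO libraries lay far from each other. Relative to the Het mean, the median small subunit gene stood at 1.41, 1.12, 0.46 and −0.34 log2 units in KO 1 to KO 4, and the median large subunit gene at 1.41, 1.21, 0.48 and −0.36. In the Het libraries the medians ran from −0.36 to 0.43. KO 1 and KO 2, in which well-measured genes stood high in general, were thus far above every Het library, KO 3 was just above them and KO 4 was level with Het 4, the lowest. No member had all 4 KO values above or below all 4 Het values, where 2.19% of all genes were above and 0.893% below. With KO 3 and KO 4 alone the medians were 0.072 and 0.056, 19 of 32 small and 27 of 46 large subunit members were positive, and 0 of 32 and 0 of the 46 large subunit members that passed the limit there were called, where 1.22% of all genes were called higher and 7.03% lower. With KO 1 and KO 2 alone the medians were 1.27 and 1.31. In that fit 31 small and 47 large subunit members were past the threshold upward and 1, Rpl3l, downward, where 47.4% of all genes were past it upward and 15.4% downward. These pairs of KO libraries were formed with their levels known, so the counts of both fits are a description and nothing is read from them.

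When the libraries were scaled to their total reads instead, a choice made after the data were seen, the order of the KO libraries changed and the spread became smaller. The median small subunit gene then stood at 0.64, 0.11, 0.95 and 0.28 in KO 1 to KO 4, and the median large subunit gene at 0.64, 0.21, 0.97 and 0.26, while all Het medians lay between −0.032 and 0.026. All 4 KO values were above all 4 Het values in 15 of 32 small and 24 of 48 large subunit genes, where 6.8% of all genes were, and in 0 members they were all below, where 2.38% of all genes were. The median log2 fold change was 0.52 and 0.53, beside −0.10 over all genes, so that this scaling places the whole table lower than the deposited one. At an unadjusted p under 0.05, 19 small and 33 large subunit members were higher, against 9.35% of all genes. After adjustment 1 member was called, Rps24 (adjusted p = 0.0379), where 1.05% of all genes were called higher and 0.0884% lower, and the lowest adjusted p of the large subunit was 0.0527.

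**Figure D2:**
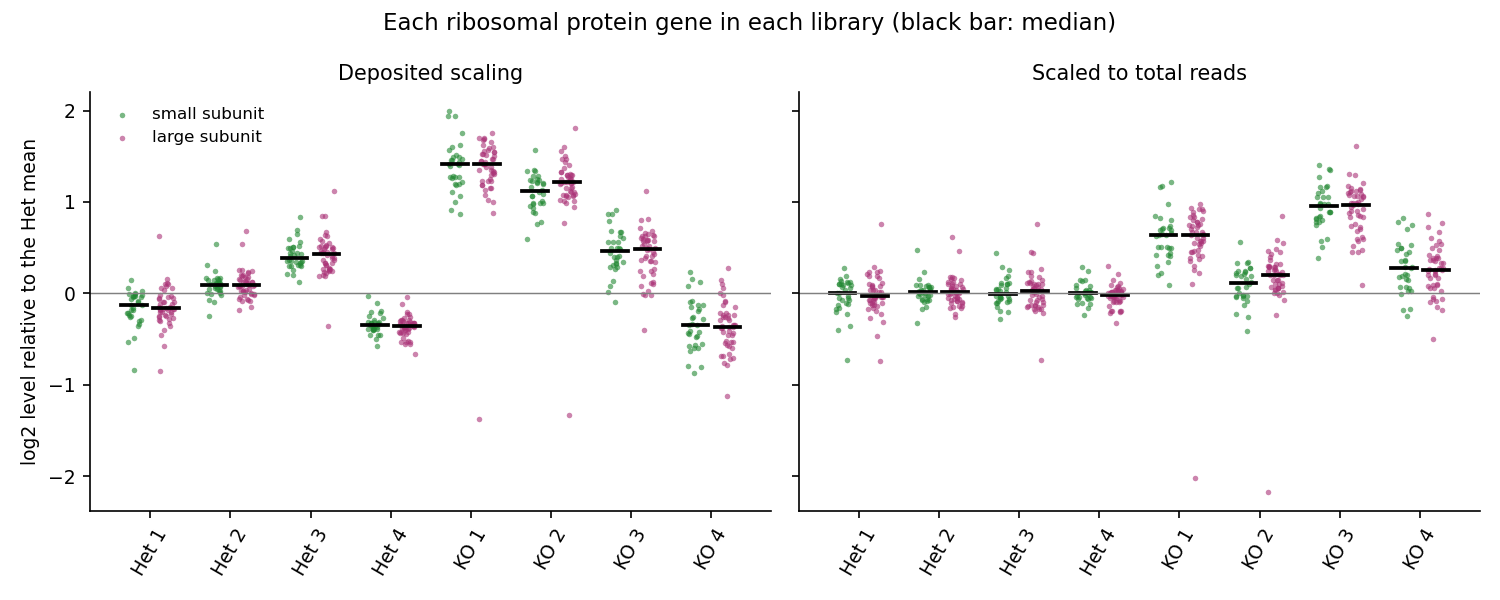
Log2 level of each member relative to its mean in the Het libraries (vertical axis), for the 8 libraries, under the deposited scaling (left) and scaled to total reads (right). Each point is 1 gene, green for the small and purple for the large subunit, and black bars are medians, which in KO 4 stand at −0.34 and −0.36 on the left and at 0.28 and 0.26 on the right.

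Rps24 had the largest difference of all members. Its protein sits in the small subunit, takes part in the processing of ribosomal RNA and is encoded by a gene mutated in some patients with Diamond-Blackfan anemia. The gene lies on chromosome 14 (24487125 to 24496959, plus strand, mm10), and its promoter is the first printed above. Normalized counts were 1615, 1970, 2284 and 1453 across Het 1 to Het 4 and 7185, 5366, 3279 and 1911 across KO 1 to KO 4. KO 1 to KO 3 stood above every Het library, and KO 4 lay within their range. The log2 fold change was 1.13 ± 0.62 (SE; adjusted p = 0.803). In RPM, the gene's reads in 1000000 reads of the library, Rps24 was at 213, 224, 208 and 221 in Het and at 505, 320, 554 and 354 in KO. On this scale all KO libraries stood above all Het libraries, and the log2 fold change was 0.96 ± 0.20 (SE). It was also called with TMM factors from genes of a mean of at least 200 (0.89, adjusted p = 0.0291). That fit called 6.03% of its 6697 genes higher and 4.24% lower. TMM scaling over all genes, edgeR and DESeq2 did not call Rps24.

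Rps27l, Rps20 and Rps15a followed in the small subunit. Rps27l is a paralog of Rps27 that p53 induces, and it lies on chromosome 9 (66946086 to 66949516, plus strand). It was at 122, 124, 193 and 98.0 normalized counts in Het and at 502, 309, 245 and 145 in KO, where KO 4 overlapped Het. Its log2 fold change was 1.06 ± 0.46 (SE; adjusted p = 0.546), and it was the only small subunit member with an unadjusted p under 0.05. Scaled to total reads, Rps27l was at 14.1 to 17.6 RPM in Het and at 35.3, 18.4, 41.3 and 26.9 in KO, so that KO 2 was only slightly above the highest Het library. Its partner Rps27 had a log2 fold change of 0.80 with a standard error of 0.55 (adjusted p = 0.892). Rps20, known for binding to the head of the small subunit, had 0.92 with a standard error of 0.55 and Rps15a 0.88 with 0.52.

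Rpsa, the laminin receptor precursor that stabilizes the small subunit, had the smallest difference of that subunit. Normalized counts were 2935, 3150, 3363 and 2055 in Het and 5154, 4766, 2638 and 1547 in KO. KO 1 and KO 2 stood above the Het range and KO 4 below it, and the log2 fold change was 0.16 ± 0.63 (SE; adjusted p = 0.986). In RPM Rpsa was at 387, 358, 306 and 313 in Het and at 362, 284, 445 and 286 in KO, which overlapped, and its log2 fold change was then −0.00433, as it was −0.017 with TMM scaling. The other small subunit genes of low difference were Rps4l at 0.39, Rps14 at 0.40 and Rps21 at 0.41, each with a standard error of at least 0.47. Rps14 is known from the 5q− syndrome of the bone marrow.

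Rps6, the small subunit protein that S6 kinase phosphorylates downstream of mTOR, was near the middle of its subunit. It was at 803, 974, 1133 and 673 normalized counts in Het and at 2336, 1976, 1101 and 652 in KO. KO 1 and KO 2 stood above all Het libraries, KO 3 lay within their range and KO 4 just below it. The log2 fold change was 0.62 ± 0.57 (SE; adjusted p = 0.927). In RPM Rps6 was at 103 to 111 in Het and at 118 to 186 in KO, without overlap. Rps19, the gene most often mutated in Diamond-Blackfan anemia, had a log2 fold change of 0.68 with a standard error of 0.54 (adjusted p = 0.910), and was at 57.7 to 62.4 RPM in Het and at 64.6 to 118 in KO.

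In the large subunit Rpl34 had the largest difference. The gene lies on chromosome 3 (130726831 to 130730398, minus strand). Normalized counts were 551, 559, 618 and 366 in Het and 1564, 1516, 1117 and 567 in KO. KO 1 to KO 3 stood above all Het libraries and KO 4 lay within their range. The log2 fold change was 1.11 ± 0.55 (SE; adjusted p = 0.719). Scaled to total reads, Rpl34 was at 72.6, 63.5, 56.2 and 55.8 in Het and at 110, 90.4, 189 and 105 in KO, all above Het. It was also 1 of 3 members without overlap under TMM scaling, with Rpl10a and Rpl13a, where 2.35% of all genes had all KO values above.

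Rpl30, Rpl14 and Rpl5 came next among the protein-coding genes of that subunit. Their log2 fold changes were 0.91 for each, with standard errors of 0.53, 0.57 and 0.58. In RPM Rpl14 was at 86.7 to 93.8 in Het and at 124 to 190 in KO, and Rpl30 at 38.8 to 52.6 and 61.6 to 94.2. Neither overlapped between the genotypes. With TMM factors from genes of a mean of at least 200, 4 of the 43 large subunit members tested were called higher, Rpl10a, Rpl14, Rpl23 and Rpl5, with adjusted p from 0.0344 to 0.0428. In that fit 1 of 31 small subunit members, Rps24, was called higher, and of all 6697 genes 6.03% were called higher and 4.24% lower.

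Rpl5 and Rpl11 form, with ribosomal RNA, the particle that binds MDM2 and stabilizes p53 when ribosome assembly is disturbed. Rpl5 was at 96.5, 95.5, 128 and 109 RPM in Het and at 203, 160, 206 and 151 in KO. Rpl11 was at 50.8, 50.2, 58.4 and 55.3 in Het, at 73.4, 65.5 and 64.9 in KO 1, KO 2 and KO 4, and higher still in KO 3. Both were higher in each KO library than in any Het library on that scale. The same held for 24 of 48 large subunit members, these 2 included, and for 6.8% of all genes. Under the deposited scaling their log2 fold changes were 0.91 and 0.65 (adjusted p = 0.861 and 0.913).

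The stalk of the large subunit, which recruits elongation factors, is built of Rplp0, Rplp1 and Rplp2, and the values of the 3 genes lay apart. Rplp0 was at 2018, 1874, 2303 and 1385 normalized counts in Het and at 3790, 3574, 1411 and 856 in KO, so that KO 1 and KO 2 were above Het and KO 4 was below it. Its log2 fold change was 0.11 ± 0.60 (SE; adjusted p = 0.991), which became −0.069 with TMM scaling. In RPM it was at 266, 213, 210 and 211 in Het and at 266, 213, 238 and 159 in KO, with no separation. Rplp2, in contrast, was at 127 to 135 in Het and at 159 to 242 in KO without overlap, with a deposited log2 fold change of 0.75 and a standard error of 0.59. Rplp1 was at 172 to 240 and 189 to 391, which overlapped, with 0.55 and 0.61. Whether the 3 genes differ from each other beyond error was not tested.

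Rpl13a, whose protein interferon-gamma releases from the ribosome to silence inflammatory mRNAs, was at 48.7, 41.3, 55.7 and 42.9 normalized counts in Het and at 150, 109, 60.7 and 48.8 in KO. KO 4 lay within the Het range and the other 3 KO libraries were above it. The log2 fold change was 0.82 ± 0.40 (SE; adjusted p = 0.696). On the RPM scale it was at 4.69 to 6.55 in Het and 6.48 to 10.5 in KO, which overlapped.

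Members on the X chromosome were Rps4x, Rpl10, Rpl36a and Rpl39, and the libraries differ in transcripts of the sex chromosomes. Het 1 held Xist at 19.2 normalized counts, against at least 2343 in every other library, and Y-linked Ddx3y had 1.10 in KO 3 and no read in KO 4. Ddx3y was at 198 to 696 in the Het libraries and at 812 and 1285 in KO 1 and KO 2. Het 2 to Het 4, KO 1 and KO 2 thus held both transcripts at these levels. The mix of sexes may therefore differ between the genotypes, and its part in the results was not tested. KO 1 and KO 2 thus differed from KO 3 and KO 4 in Ddx3y as well as in the deposited levels of the members. The part of this in the differences among the KO libraries was not tested. Rps4x had a log2 fold change of 0.46 with a standard error of 0.56, and was at 85.6 RPM in Het 1, 102 to 110 in the other Het libraries and 102 to 172 in KO. Rpl10, which joins the large subunit in a late step of its assembly, had 0.32 with 0.62, and was at 262 to 306 in Het and 257 to 396 in KO. Rpl39 had 0.88 with 0.45, at 11.5 to 19.6 and 16.7 to 32.6. The genotypes overlapped for these 3 genes on both scales, whereas Rpl36a reached at most 28.7 RPM in Het and 35.3 to 57.7 in KO 1, KO 3 and KO 4, with KO 2 just below these but above Het.

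Paralogs that are known from single tissues were scarce. Rpl3l, the muscle paralog of Rpl3, lies on chromosome 17 (24727820 to 24736143, plus strand). It was at 28.2, 21.3, 13.7 and 12.2 normalized counts in Het and at 6.27, 6.47, 17.6 and 10.1 in KO, from 5 to 22 reads per library. KO 1, KO 2 and KO 4 were below all Het libraries, and KO 3 lay within their range. It was the single member with a negative log2 fold change, −0.87 with a standard error of 0.48 (adjusted p = 0.804). Olfactory and vomeronasal receptor genes, which beta cells are not known to use, also took the smallest shares of reads in KO 1 and KO 2, 0.0451% and 0.0320%, against 0.0786% to 0.296% elsewhere. The part of this in the values of Rpl3l was not tested. Rpl3 itself was at 1680, 2054, 2021 and 1269 in Het and at 4488, 3976, 1829 and 1359 in KO, with a log2 fold change of 0.58 and a standard error of 0.61. Of the germ cell paralogs, Rpl10l had 2 to 14 reads and Rpl39l had 1 to 6 reads per library, both with a mean under 10 normalized counts.

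**Figure D3:**
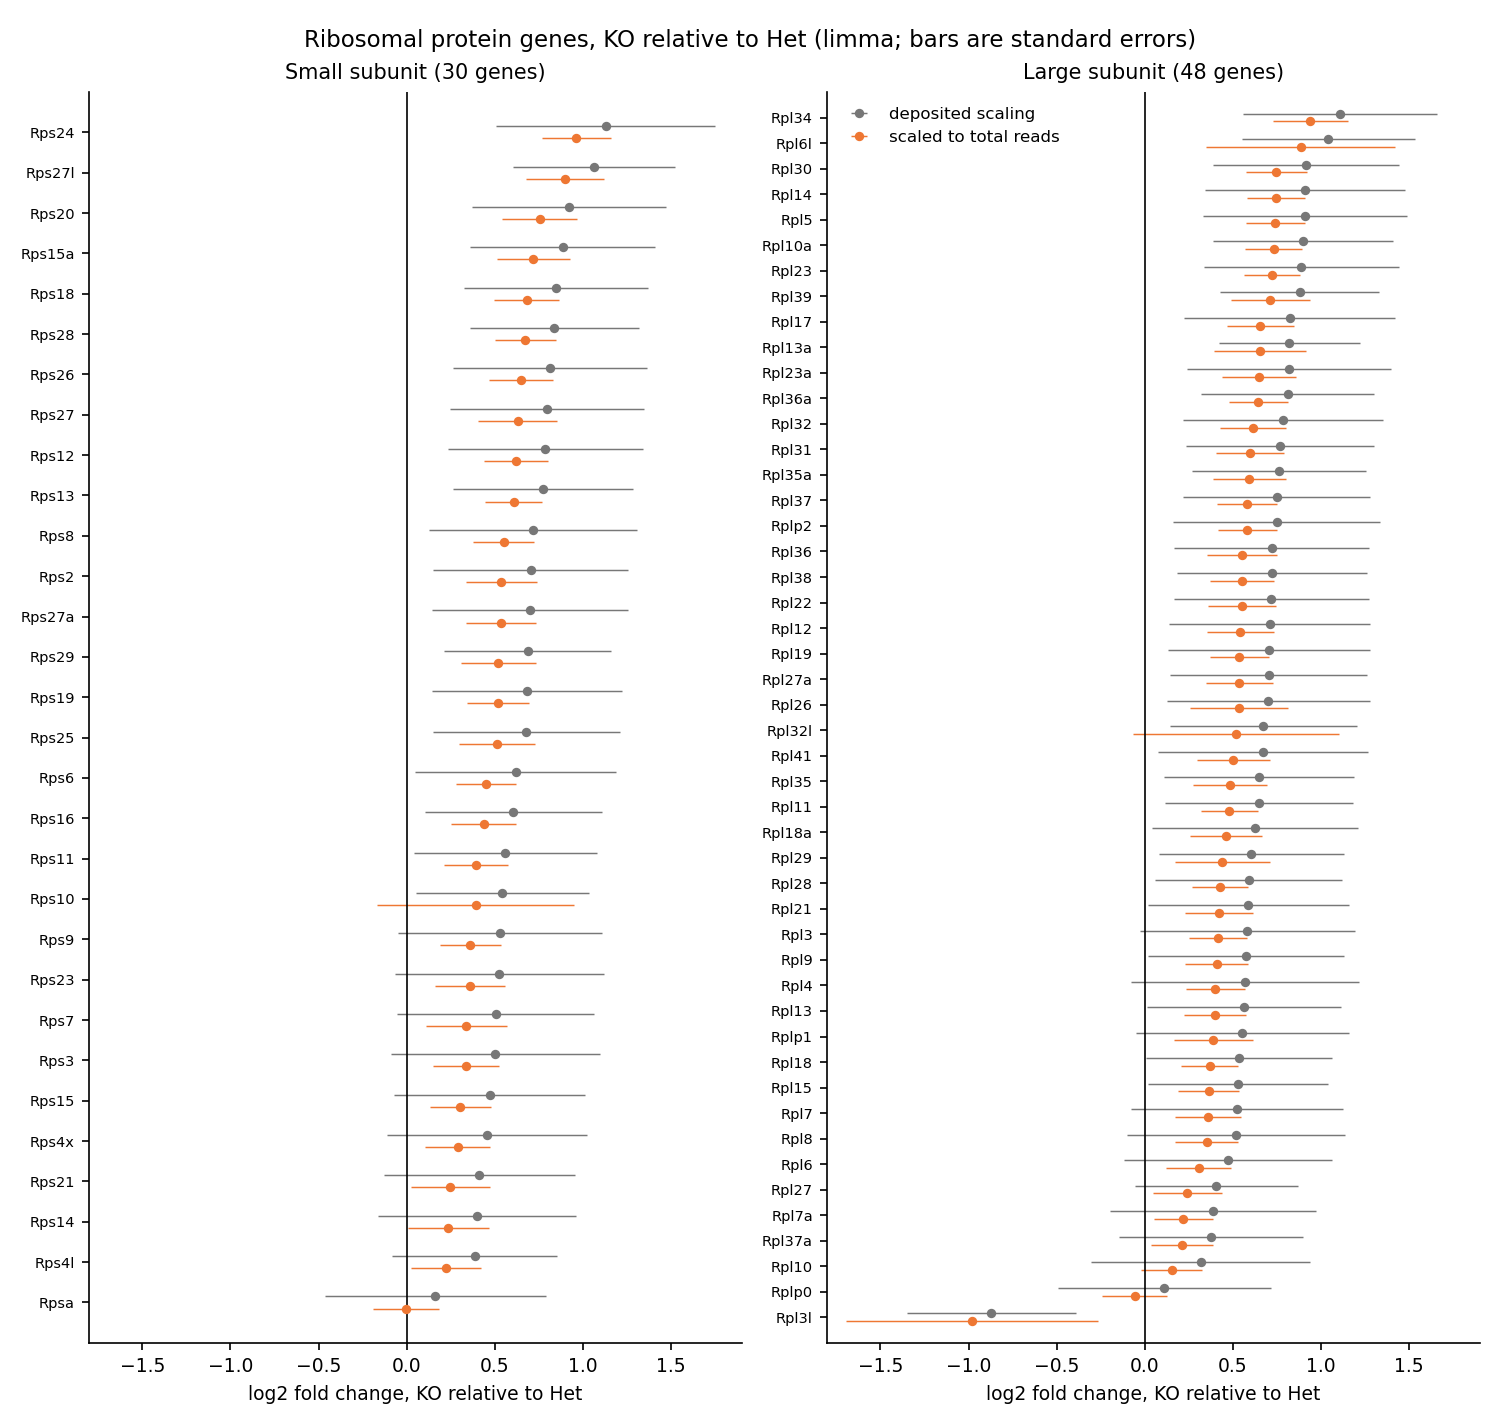
Log2 fold change of 30 small and 48 large subunit members, KO relative to Het (horizontal axis), for the small (left) and large subunit (right), with limma's standard error, in grey under the deposited scaling and in orange scaled to total reads. Genes are ordered by the grey points, from Rps24 at 1.13 to Rpsa at 0.16 and from Rpl34 at 1.11 to Rpl3l at −0.87.

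**Figure D4:**
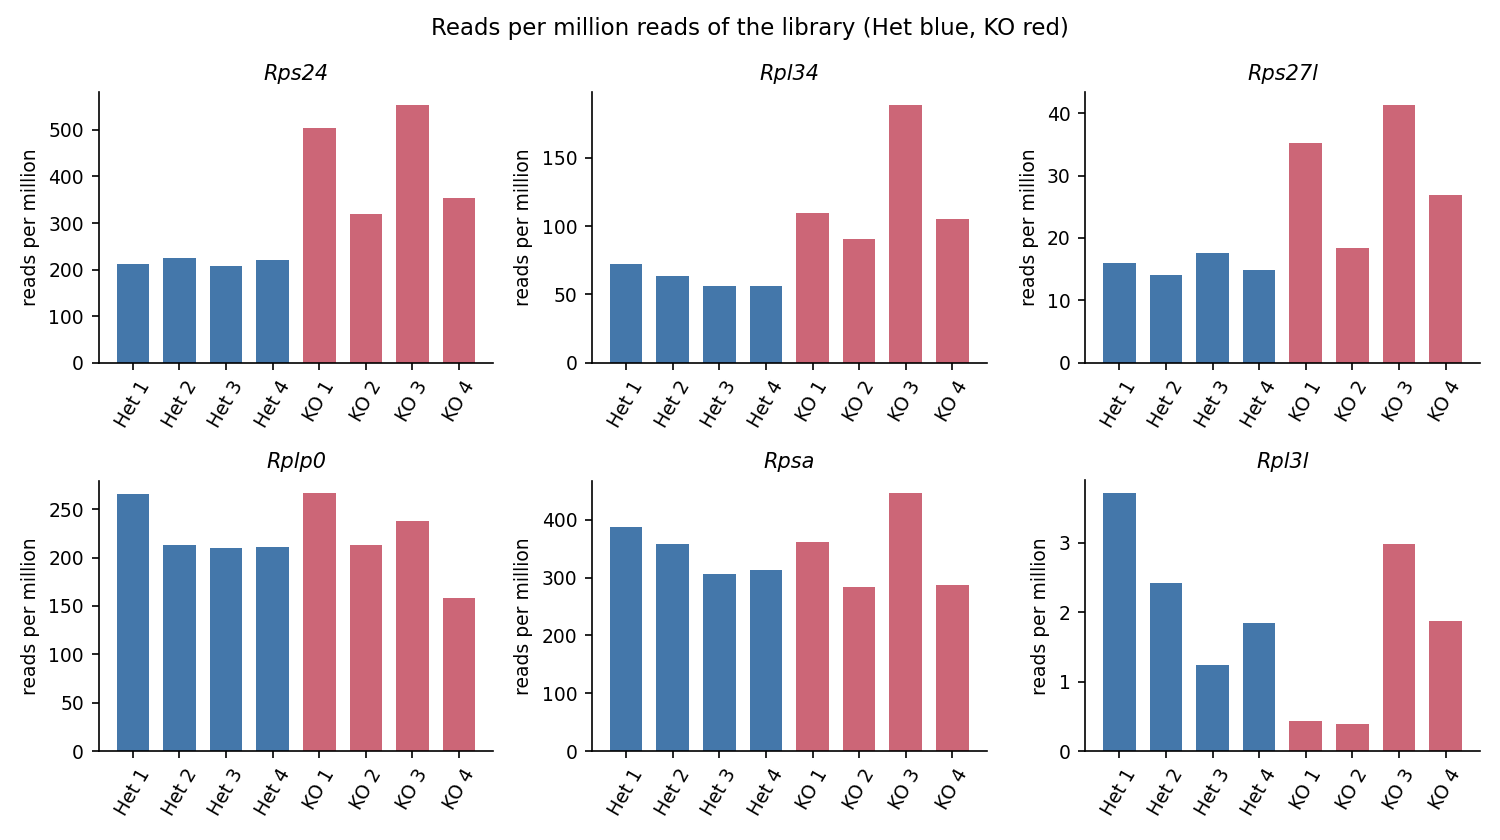
Levels in RPM (vertical axes, from 0) in the 8 libraries for the 2 small and 1 large subunit genes of largest difference, Rps24, Rps27l and Rpl34 (top), and for Rplp0, Rpsa and Rpl3l (bottom). Het libraries are blue and KO libraries red; Rps24 runs from 208 to 224 in Het and from 320 to 554 in KO, while Rplp0, Rpsa and Rpl3l overlap.

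Levels per kilobase spanned a wide range among the members. Per kilobase of transcript, high small subunit genes were Rps24, the highest, at 6694 normalized counts, Rps27 at 2391 and Rpsa at 2002, and the highest large subunit genes were Rplp1 at 4413, Rpl41 at 4327, Rplp2 at 3738 and Rpl10 at 3641. Spearman's rho between the levels of the 80 members in 2 libraries was 0.959 to 0.987 within a genotype (12 pairs) and 0.946 to 0.977 between genotypes (16 pairs). Over the 32 small subunit members alone it was 0.927 to 0.989 and 0.937 to 0.984, and over the 48 large subunit members 0.967 to 0.990 and 0.953 to 0.980. These values describe order across genes and carry no test. For Rps20 the shortest annotated coding transcript is long, so no value per kilobase is given for it, and it enters sums over the small subunit at that length.

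Of 78 members compared by their part of the subunit's summed level per kilobase, 7 were higher and 7 lower in each KO library than in any Het library. The parts of a subunit are tied by their sum, so a higher part of Rps24 lowers the parts of the other small subunit genes. The measure has no counterpart over all genes, and the counts are a description. The 7 higher were Rps12, Rps24, Rps26, Rpl14, Rpl17, Rpl23 and Rpl34, and the 7 lower were Rps15, Rps23, Rps3, Rpsa, Rpl7, Rpl7a and Rplp0. Rps24, Rpsa and Rplp0 are given as examples from the ends of the range. Rps24 made up 11.8%, 12.3%, 11.8% and 12.5% of the summed level per kilobase of the small subunit in Het and 17.8%, 16.3%, 15.7% and 16.5% in KO. Rpsa made up 6.29%, 5.75%, 5.09% and 5.19% in Het and 3.75%, 4.23%, 3.69% and 3.91% in KO, and Rplp0 made up 2.50% to 3.17% of the large subunit in Het and 1.51% to 2.24% in KO. Scaled to the summed reads of the members, 17 of 32 small and 29 of 48 large subunit members were positive. This scaling makes that sum equal in all libraries, so a split of the members into positive and negative is built into it. On that scale Rps12, Rps24, Rps26, Rpl14, Rpl17, Rpl23 and Rpl34 stood higher in each KO library than in any Het library, where 0.888% of all genes did. Conversely, Rps15, Rps3, Rpsa, Rpl7a and Rplp0 stood lower in each KO library, where 10.7% of all genes did. In that fit 0 of the 80 passed the test, and the lowest adjusted p, that of Rpl34, was 0.333.

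Over the 74 protein-coding members other than Rpl3l, Rps10 and Rpl13a, the log2 fold changes ran from 0.11 to 1.13 with a median of 0.68 and quartiles of 0.53 and 0.78. As a description across genes, which share libraries, the log2 fold change had a Spearman's rho of −0.28 with transcript length, −0.30 with mean level and 0.0100 with the share of the transcript that has copies elsewhere.

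The counts of some members depend on how reads were assigned to genes. Ribosomal protein genes have many processed pseudogenes, copies of the mRNA placed elsewhere in the genome. By stretches of 50 bases, a median of 53.5% of a member's transcript also stood in transcripts of genes elsewhere, from 0% in Rpl3l to 98.6% in Rps27, and 46 of 80 members exceeded 50%. The 3 members Rpl32l, Rpl6l and Rps4l are themselves annotated as pseudogenes, at means of 11.8, 14.3 and 223 normalized counts. Another 245 rows had the name of a ribosomal protein pseudogene (ending in -ps and a number), 30 of them with a mean of at least 10, and they took 0.0133% to 0.0231% of reads in Het and 0.0120% to 0.0306% in KO. Values of single members may hold reads of such copies or lack reads shared with them.

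Several rows of protein-coding ribosomal protein genes at very low counts overlapped a second gene model, and others did not. More than 20% of the transcript also lay in a second model on the same strand in Rps10 (91.6%, RPS10-NUDT3), Rpl24 (71.5%, Gm28037), Rpl36al (63.1%, Gm49383) and Rpl13a (59.3%, Gm45713). These 4 genes were at means of 4.16 to 69.6 normalized counts. The scarce paralogs Rpl3l, Rpl10l and Rpl39l, at 14.5, 7.87 and 3.52, were as low with an overlap of 0%. Leaving out these 3 genes, the other 77 were at 184 to 4661, with a median of 882, and their highest overlap was 15.7% in Rpl19. The counting mode is not given in the sources used here, and whether reads in 2 models were set aside was not tested. The level of these 4 genes is therefore uncertain.

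**Figure D5:**
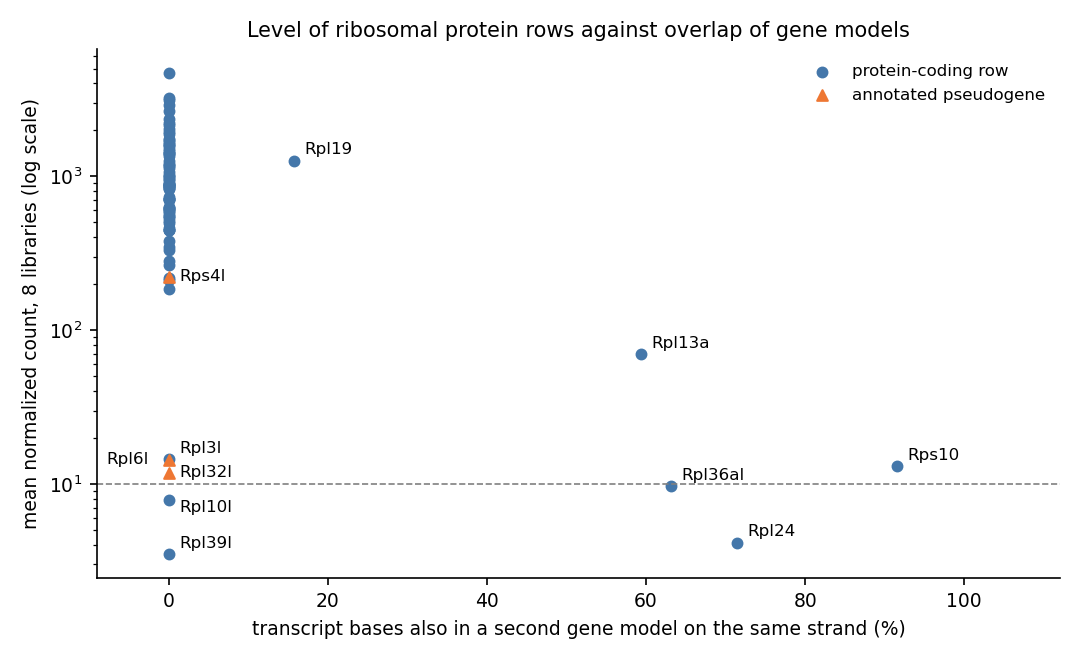
Mean normalized count over the 8 libraries (vertical axis, log scale) against the percent of transcript bases that a second gene model on the same strand also covers (horizontal axis), for the rows with a member's name and for Rps3a1, Fau, Rack1 and Rpl36al. Circles are protein-coding genes, triangles annotated pseudogenes, and the dashed line is the limit of 10; the 4 genes with more than 20% overlap lie at 69.6 or below.

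Ribosomal proteins whose symbols the name rule does not take were read from the same fit. Of 7 such genes, 5 were tested and 0 were called, with a median log2 fold change of 0.47. Over all genes tested 0.921% were called higher and 0.0233% lower, with a median of 0.052, so 0 calls among 5 genes say little. Fau, which encodes a ubiquitin-like protein fused to a small subunit protein, had 0.56 with a standard error of 0.56 (adjusted p = 0.937), and Rack1, a signalling scaffold on the small subunit, had 0.47 with 0.59 (adjusted p = 0.952). Rps3a1 was uneven among the Het libraries, at 181, 199, 936 and 503 normalized counts, beside 644, 619, 301 and 200 in KO.

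Other genes of protein synthesis followed. Of 77 mitochondrial ribosomal protein genes 0 were called and 77 were positive, where 0.921% of all genes were called higher and 54.3% were positive. The median log2 fold change was 0.61. They took 0.111% to 0.122% of reads in Het and 0.128% to 0.191% in KO. Of 17 other mRNAs with a TOP motif 0 were called and the median was 0.47, with Npm1, a chaperone of the nucleolus, at 0.96 and a standard error of 0.59 (adjusted p = 0.847). They took 0.265% to 0.269% of reads in Het and 0.311% to 0.393% in KO. In both groups every KO library was above every Het library. Scaled to total reads, this held for 6.8% of all single genes, and sums over lists have no such counterpart.

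The lists that follow are to be read beside all genes tested, of which 0.921% were called higher and 0.0233% lower, with a median of 0.052. Lists this short would hold few or no calls at that share. Of 25 genes of ribosome assembly and export 0 were called and the median was 0.50, with Ltv1, needed for the export of the small subunit, at 1.21 and a standard error of 0.51 (adjusted p = 0.507). They took 0.0992% to 0.105% of reads in Het and 0.120% to 0.156% in KO, again with every KO library above every Het library. Of 8 elongation factor genes 0 were called and the median was 0.32, and their shares overlapped at 0.266% to 0.275% in Het and 0.268% to 0.338% in KO. Of 22 regulators, from the mTOR pathway to Myc, 0 were called and the median was 0.26, with shares that overlapped at 0.141% to 0.151% in Het and 0.111% to 0.183% in KO. Myc, a transcription factor that drives many ribosomal genes, was at 65.3 ± 14.5 normalized counts in Het and 155 ± 134 in KO (SD, n = 4 each), with a log2 fold change of 0.86 (adjusted p = 0.671).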

How the data were processed

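The deposited table holds a signal per gene and library, a read count divided by 1 factor for each library, as its values show. As tools, the submitters' processing notes list STAR 2.7.3a, HTSeq, UMI-tools, FastQC 0.11.8 and DESeq2 1.28.1, and as build mm10. The aligner settings, the annotation, the counting mode and the handling of duplicates are not given in the sources used here. Libraries were made from total RNA with a stranded kit for pico amounts, per the labels' protocols.

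In each library 100% of values were whole multiples of 1 step within 0.001, which gave back whole reads. No row lacked a gene name. Genes whose 8 values averaged 10 or more were transformed as log2(value + 1) and compared in limma 3.58.1 under R 4.3.3 (trend and robust settings, two-sided, Benjamini-Hochberg adjustment, threshold 0.05). Fold changes, KO over Het, are on this scale, which makes those of low genes too small. The quasi-likelihood test of edgeR 4.0.16 and DESeq2 1.42.0 were run on the recovered reads. Of these steps, only the limma fit was tested on simulated data.

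Annotation, overlaps and transcript lengths came from GENCODE M21, with the shortest transcript in the consensus coding set. Names were drawn, per subunit, from the 4 members highest per kilobase, the 3 lowest, and the 4 largest and 4 smallest fold changes. Further names were the paralog pairs, the stalk genes, Rpsa, Rps6, Rps19, Rpl5, Rpl11 and Rpl13a. The 3 genes of smallest p in each other list were eligible as well. Not every eligible gene is named, and the gene named from a list is not always that of smallest p. Other names were chosen after their values were seen. A few genes are counted in the sums but not reported here by name. The members and lists were chosen with earlier results of these data known.

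Alternatives were pseudocounts of 0.5 and 8, no filter, a mean of at least 50, TMM scaling, genes with a mean of at least 200 with TMM factors from them, no trend or robust settings, the replicate number as a block, leaving out each library, and KO 1 and KO 2 or KO 3 and KO 4 alone. Scaling to total reads or to the summed reads of the members, and protein-coding denominators, were added after seeing the data.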

Additional observations from a re-analysis of the deposited data

Results flagged for a closer look

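The ratio of large to small subunit reads was checked in each genotype with the shares and the named members, 66 groups of 4 libraries in all, and in 2 of them 1 library lay far from the other 3. The ratio was 1.78 in Het 3, beside 1.70 to 1.71 in the other Het libraries. It was 1.86 in KO 2, beside 1.66 to 1.69 in the other KO libraries. Chance alone marks about 1 in 20 such groups.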

How the results depend on the processing

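Leaving out each library gave 0 called members in both subunits, medians of 0.43 to 0.99 (small) and 0.44 to 1.03 (large), and 111 to 384 called genes beside 203; Rplp0 ran from −0.19 to 0.52 and Rpsa from −0.072 to 0.51. The replicate numbers did not pair the libraries (same-numbered deviations correlated at −0.28, 0.27, −0.55 and 0.63), and with the replicate block 0 members and 187 genes were called, with medians of 0.68 and 0.69. The restriction to means of 200 or more, with TMM, gave 1 and 4 called members, medians of 0.44 and 0.43 and 688 genes, edgeR gave medians of 0.42 and 0.47, and fits without trend or robust settings 128 genes. KO 1 and KO 2 alone gave 31 and 48 called members and 12991 genes, a large subunit median of 1.31, and with TMM 29, 47 and 11418. KO 3 and KO 4 alone gave medians of 0.072 and 0.056 and 1862 genes, and 2720 with TMM. Scaling to total reads called 1 small subunit member, and scaling to the members' sum gave a small subunit median of 0.063 and 84 genes.

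Among the members named in the text and Rpl37a, the following log2 fold changes turned negative, none of them called. Rpl37a is not described above, and its log2 fold change was 0.17 to 0.70 when each library was left out. Over all members, 19 of 32 (small) and 27 of 46 (large) were positive with KO 3 and KO 4 alone, and 17 of 32 and 29 of 48 when scaled to the members' sum. Under TMM Rplp0 was −0.069 and Rpsa −0.017, in edgeR −0.061 and −0.048, with TMM from means of 200 or more −0.13 and −0.080, and scaled to total reads −0.057 and −0.00433. In KO 3 and KO 4 alone Rpl10 was −0.40, Rpl3 −0.13, Rpl37a −0.18, Rplp0 −0.76, Rplp1 −0.093, Rps14 −0.24, Rps21 −0.16, Rps4l −0.078, Rps4x −0.16, Rps6 −0.053 and Rpsa −0.48, and with TMM, in the same order without Rps6, −0.34, −0.073, −0.12, −0.70, −0.036, −0.19, −0.10, −0.022, −0.098 and −0.43. Scaled to the members' sum, those 11 were −0.30, −0.038, −0.24, −0.51, −0.065, −0.22, −0.21, −0.23, −0.16, −0.00148 and −0.46, and Rps10 was −0.024. That scaling makes the members' summed reads equal in all libraries, so negative values of some members are built into it. The cause of the other negative values was not tested. Over reads outside the mitochondrial genes, the Het mean share was 0.295% (small) and 0.509% (large). Over protein-coding reads it was 0.344% and 0.593%, and in KO 0.504% and 0.862%. Without insulin these were 0.387%, 0.668%, 0.549% and 0.939%. Depth limits Rpl3l, Rpl32l, Rpl6l and Rps10, whose counts are low.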
